A study of Mus musculus with 6 samples.

Results

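The antioxidant, glutathione and thioredoxin genes are 34 named genes whose proteins sense oxidants, make or use glutathione, or reduce peroxides and protein disulfides. They were chosen by name and known function, with earlier results of these data known. Symbols were matched to the Ensembl identifiers of the deposited table, which lists 26128 genes. Of the 34 genes 33 were matched to a row, and all 33 were among the 14671 genes left by a filter on low counts. The expression of the metallothionein gene Mt2 was not analysed here, and of this gene its promoter alone enters the results. RNA had been sequenced from double negative T (DNT) cells, T cells that carry neither CD4 nor CD8, in 3 control libraries without IL-33 and 3 libraries with IL-33 at 50 ng/ml. In both groups the cells came from adult C57BL/6 mice (spleen is the labelled tissue, and the methods give male mice), were converted in culture from CD4+ T cells with mature dendritic cells of DBA/2 mice and IL-2, were sorted as CD3+NK1.1-CD4-CD8-, and were then restimulated on anti-CD3/CD28 beads for 48 h. They are therefore cells made and restimulated in culture, not DNT cells taken from an animal. The comparison asks what IL-33 changes in these cells.

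Cells remove peroxides by a pair of linked systems, both of which draw their electrons from NADPH. In one, glutathione is built from amino acids by glutamate-cysteine ligase and glutathione synthetase, used by glutathione peroxidases, transferases and glutaredoxins, and regenerated by glutathione reductase. In the other, thioredoxin reductase reduces thioredoxin, which in turn reduces the peroxiredoxins, while TXNIP binds and inhibits thioredoxin. The transcription factor NRF2 (gene Nfe2l2) induces many genes of both systems through antioxidant response elements, and KEAP1 marks it for degradation until oxidants modify KEAP1. Activated T cells produce oxidants, and glutathione and thioredoxin are known to be needed for their growth.

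The libraries held 20256342 to 22336050 counts in all, and the level of 3 counts, taken as the limit of detection, was 0.134 to 0.148 CPM, which covers counting error only. CPM is the count per 1000000 of the library total scaled by TMM, and RPKM is CPM per kilobase of exon. Exon here means the merged exons of all annotated transcripts of a gene. The T cell markers summed to 2681 to 2856 CPM in the control libraries and 2748 to 2867 CPM with IL-33, and of the markers that the sort should remove Cd4 was low, at 0.934 and 0.373 CPM. Despite the sort Cd8a had a mean of 545 CPM in the control group and fell to 400.2 CPM with IL-33, Cd8b1 rose from 9.68 to 16.3 CPM, and Klrb1c, the gene of NK1.1, fell from 33.5 to 25.6 CPM. Dendritic and myeloid markers summed to 98.4 to 99.9 CPM without IL-33 and 73.1 to 80.2 CPM with it. Among these Itgax fell from 54.6 to 25.98 CPM and Cd68 rose from 29.4 to 33.6 CPM. Xcr1 was at 11.5 CPM without and 12.4 CPM with IL-33 and Zbtb46 at 2.89 and 2.98 CPM, while Flt3, Siglech and Lyz2 were at or near 0. Mast cell and basophil markers summed to 16.3 to 22.2 and 12.2 to 14.9 CPM, and Cpa3 among them fell from 10.9 to 7.10 CPM. Erythroid markers summed to 2.17 to 2.54 and 4.65 to 5.94 CPM, where Alas2 rose from 0.924 to 4.42 CPM with Slc4a1 at or near 0. B cell markers summed to 4.79 to 5.70 and 5.35 to 6.35 CPM, and neutrophil markers to 5.37 to 7.07 and 4.74 to 6.62 CPM. The part of these cells in the results was not tested. In RNA from whole populations, fewer cells that express a gene and less RNA of it per cell cannot be told apart.

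IL-33 stimulation changed the antioxidant genes in both directions and mostly by small amounts. By the quasi-likelihood test of edgeR, with p adjusted by Benjamini-Hochberg over all genes tested, 17 of the 33 genes had an adjusted p under 0.05, of which 11 rose and 6 fell, beside 27.5% of all genes tested, 13.6% higher and 13.9% lower. The genes that rose were Gpx4, Gsto1, Mgst2, Mgst3, Txnip, Prdx2, Prdx3, Prdx5, Sod1, Cat and Glrx, and those that fell were Nfe2l2, Gclc, Gclm, Gstm5, Txnrd1 and Prdx1. In 1 gene, Nfe2l2, which fell, the fold change was also over 1.5, beside 4.87% of all genes tested, 2.47% higher and 2.39% lower. The genes are more abundant than most, and abundant genes pass a test more often. Among the 17 antioxidant genes at or above their own median level 10 passed (58.8%), beside 46.4% of the 4110 tested genes with at least that mean CPM. The 3 libraries of each group did not overlap in 19 of the 33 genes, 12 higher and 7 lower, beside 38.9% of all genes tested, 19.4% higher and 19.5% lower. Over the 33 genes the median log2 fold change was 0.054, against -0.00063 over all genes tested, and the median size of the change, without its sign, was 0.18 against 0.15. These shares and medians describe a list chosen with earlier results of these data known, and they were not tested.

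**Figure D1:**
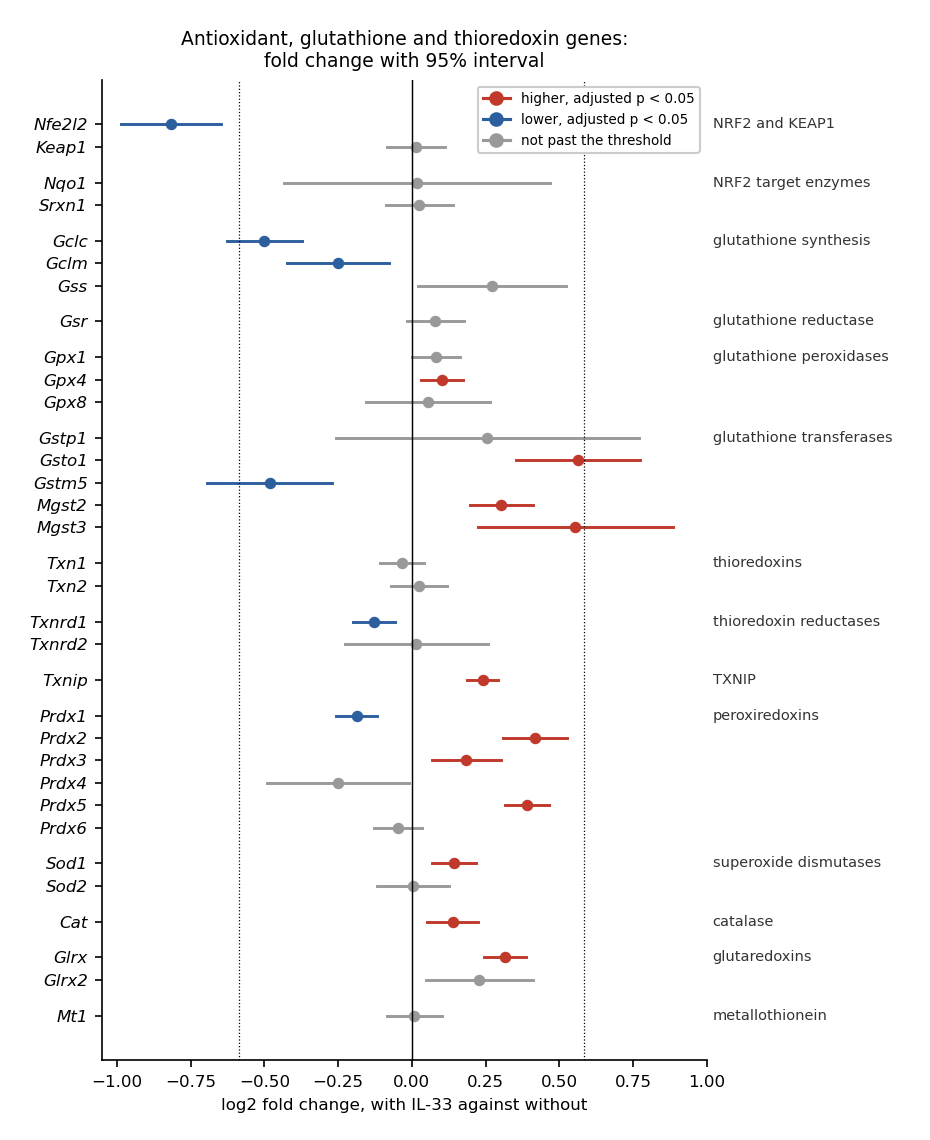
Log2 fold change of the 33 genes with IL-33 against without, ordered by role, as points with 95% intervals from edgeR's quasi-likelihood fit on 3 libraries in each group. The x axis is on the log2 scale, the dotted lines mark a fold change of 1.5 in either direction, and colour marks an adjusted p under 0.05. Nfe2l2, at -0.82, is the one point past a dotted line, and 11 points are red and 6 blue.

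Upstream of the genes that fell, the core of the antioxidant response element, the site through which NRF2 acts, was looked for in the RefSeq promoters (GRCm38.p6), windows of 250 bases before to 50 bases after each start site. The core was searched as TGACNNNGC on both strands. Elements outside these windows or in other forms were not searched, so a gene without a match may still hold one. Among the antioxidant genes with a promoter in that set, 8 of 31 held it (25.8%), beside 12.4% of all 32851 promoters and 14.0% of the 27025 genes with a promoter. Among genes tested with a promoter, the core was in 7 of 30 antioxidant genes (23.3%), beside 17.1% of all. It was present in a promoter of all 5 genes that fell and had one in the set, Nfe2l2, Gclm, Gstm5, Prdx1 and Txnrd1, in the last of these in 1 of its 3 promoters, the call of Gclm depending on which libraries were included. Among the genes that rose 1 of 11 held it, Sod1, and among those that did not pass the test 1 of 14, Srxn1, where it lies after the start site. The remaining match was in Mt2. Nqo1, a known NRF2 target, had a promoter in the set but no match. No promoter of Gclc, Gsr or Prdx6 was in the set.

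The stretches that hold the core in the 5 genes that fell and in Sod1 are shown because they carry this pattern. Each runs 5′ to 3′ on the strand of the gene, is cut where an annotated exon of a protein-coding gene begins, and has the core in capitals. In Gclm, Txnrd1, Prdx1 and Sod1 the core reads on the opposite strand, so that its reverse complement is what stands in capitals.
Nfe2l2: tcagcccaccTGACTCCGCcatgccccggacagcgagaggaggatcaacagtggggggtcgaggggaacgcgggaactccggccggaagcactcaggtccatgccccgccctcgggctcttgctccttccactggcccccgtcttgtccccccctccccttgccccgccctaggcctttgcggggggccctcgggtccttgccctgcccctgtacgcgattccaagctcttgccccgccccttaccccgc
Gclm: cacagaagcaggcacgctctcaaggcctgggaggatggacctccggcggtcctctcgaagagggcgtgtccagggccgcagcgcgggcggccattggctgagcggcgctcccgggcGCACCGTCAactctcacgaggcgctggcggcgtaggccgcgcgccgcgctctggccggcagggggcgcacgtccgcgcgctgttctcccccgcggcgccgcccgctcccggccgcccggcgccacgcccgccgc
Txnrd1: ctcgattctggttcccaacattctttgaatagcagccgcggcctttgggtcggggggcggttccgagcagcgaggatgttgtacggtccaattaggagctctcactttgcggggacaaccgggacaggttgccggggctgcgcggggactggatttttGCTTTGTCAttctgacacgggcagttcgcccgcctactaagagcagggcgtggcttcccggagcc
Prdx1: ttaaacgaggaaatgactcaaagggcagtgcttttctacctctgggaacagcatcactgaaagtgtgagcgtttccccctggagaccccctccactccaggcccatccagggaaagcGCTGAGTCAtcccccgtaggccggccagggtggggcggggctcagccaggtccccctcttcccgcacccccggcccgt
Gstm5: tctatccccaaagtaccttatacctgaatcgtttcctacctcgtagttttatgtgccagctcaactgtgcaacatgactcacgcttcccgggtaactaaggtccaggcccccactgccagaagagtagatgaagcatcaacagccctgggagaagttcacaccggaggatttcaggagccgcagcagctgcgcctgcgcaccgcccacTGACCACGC
Sod1: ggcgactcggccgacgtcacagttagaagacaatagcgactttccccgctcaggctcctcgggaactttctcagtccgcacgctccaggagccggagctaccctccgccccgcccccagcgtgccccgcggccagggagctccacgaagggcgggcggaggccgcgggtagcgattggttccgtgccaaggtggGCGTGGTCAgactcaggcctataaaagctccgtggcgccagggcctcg
These are chr2:75704664-75704913 (minus strand, Nfe2l2), chr3:122245307-122245556 (plus strand, Gclm), chr10:82858956-82859178 (plus strand, Txnrd1), chr4:116685349-116685543 (plus strand, Prdx1), chr3:107895604-107895820 (plus strand, Gstm5) and chr16:90220512-90220753 (plus strand, Sod1) in GRCm38.p6. Counted from the start site, the first base of the core lay at position -240 in Nfe2l2, -134 in Gclm, -92 in Txnrd1, -133 in Prdx1, -42 in Gstm5 and -56 in Sod1. In Prdx1 the core overlaps an AP-1 site, searched as TGANTCA, which 7 of the 31 antioxidant genes held (22.6%) beside 8.97% of all genes with a promoter. Among genes tested with a promoter, 6 of 30 antioxidant genes held an AP-1 site (20%), beside 6.21% of all.

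Outside these genes the shares lay closer together. In a list of 100 further antioxidant genes, the core was in a promoter of 16 of the 71 tested with one in the set (22.5%). It was in 3 of 11 genes that fell (27.3%), 3 of 18 that rose (16.7%) and 10 of 42 that did not pass (23.8%). Over all genes tested with a promoter it was in 17.6% of 1565 that fell, 19.4% of 1521 that rose and 16.6% of 6982 that did not pass. The median log2 fold change of the 7 antioxidant genes with the core was -0.19, and that of the 23 without it was 0.14, beside 0.047 and 0.061 in the wider list and 0.00048 and -0.0035 over all genes tested. A match describes the letters of the window and not binding, and no test was made. The carbohydrate response element, through which glucose is known to induce Txnip, was searched only as its full consensus. This strict pattern was found in 0 antioxidant genes and in 0.0457% of all promoters. A pattern so rare would be absent from most lists of this size, and looser forms of the element were not searched. The search therefore cannot show whether the Txnip promoter holds the element. The core of the metal response element, searched as TGCNCNC, was found in 16 antioxidant genes, Mt1 among them (51.6%), beside 53.6% of all genes with a promoter.

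**Figure D2:**
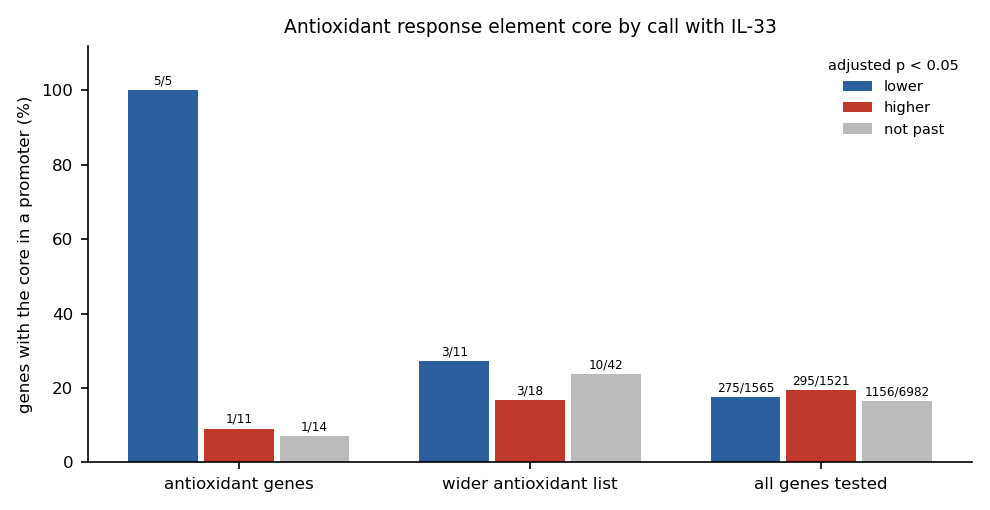
Share of genes with the antioxidant response element core in a RefSeq promoter (y axis, percent, from 0), by call with IL-33 at an adjusted p of 0.05, for the antioxidant genes, a wider list and all genes tested. The numbers over the bars are genes with the core of genes with a promoter. Sites outside the promoter windows were not searched. The share is 100% in the 5 antioxidant genes that fell and between 7.14% and 27.3% in every other bar.

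The gene of NRF2 itself had the largest change of the 33. Nfe2l2 (chromosome 2, 75675513 to 75704641 in GRCm38) had 675, 579 and 570 counts in the control libraries and 389, 308 and 359 with IL-33, or 31.8, 28.5 and 26.01 against 18.1, 14.7 and 16.2 CPM. Every library with IL-33 lay below every control library. The mean fell from 28.8 ± 2.91 to 16.3 ± 1.70 CPM (SD, n = 3), a log2 fold change of -0.82 (standard error, SE, of 0.085, adjusted p = 6.3e-14). A test against the fold change of 1.5 itself gave an adjusted p of 0.094, and in the 13 other alternatives the adjusted p ran from 2.5e-20 to 2.3e-08. Keap1, whose protein holds NRF2 down, had 61.9, 59.1 and 62.0 CPM in the control libraries and 61.7, 59.3 and 63.9 with IL-33. The groups overlapped, with a log2 fold change of 0.014 and a 95% interval of -0.085 to 0.11. The RPKM of Nfe2l2 divided by that of Keap1 was 0.635, 0.596 and 0.519 in the control libraries and 0.362, 0.306 and 0.313 with IL-33. The exact two-sided permutation test gave p = 0.1 for this ratio, the smallest that 3 libraries against 3 allow.

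Neither of a pair of enzymes known as NRF2 targets passed the test. Nqo1, a quinone reductase, was among the lowest of the 33 genes, with 2.83, 2.46 and 2.51 CPM in the control libraries and 2.79, 3.05 and 2.07 with IL-33. Its log2 fold change of 0.018 had a 95% interval of -0.43 to 0.47, and changes within it were not detectable at this depth. Srxn1, sulfiredoxin, which repairs overoxidized peroxiredoxins, had 47.9, 45.3 and 46.7 CPM against 47.1, 48.1 and 47.1. Its log2 fold change was 0.025 with an interval of -0.088 to 0.14. In both genes the groups overlapped, and the adjusted p was 0.97 for Nqo1 and 0.79 for Srxn1.

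**Figure D3:**
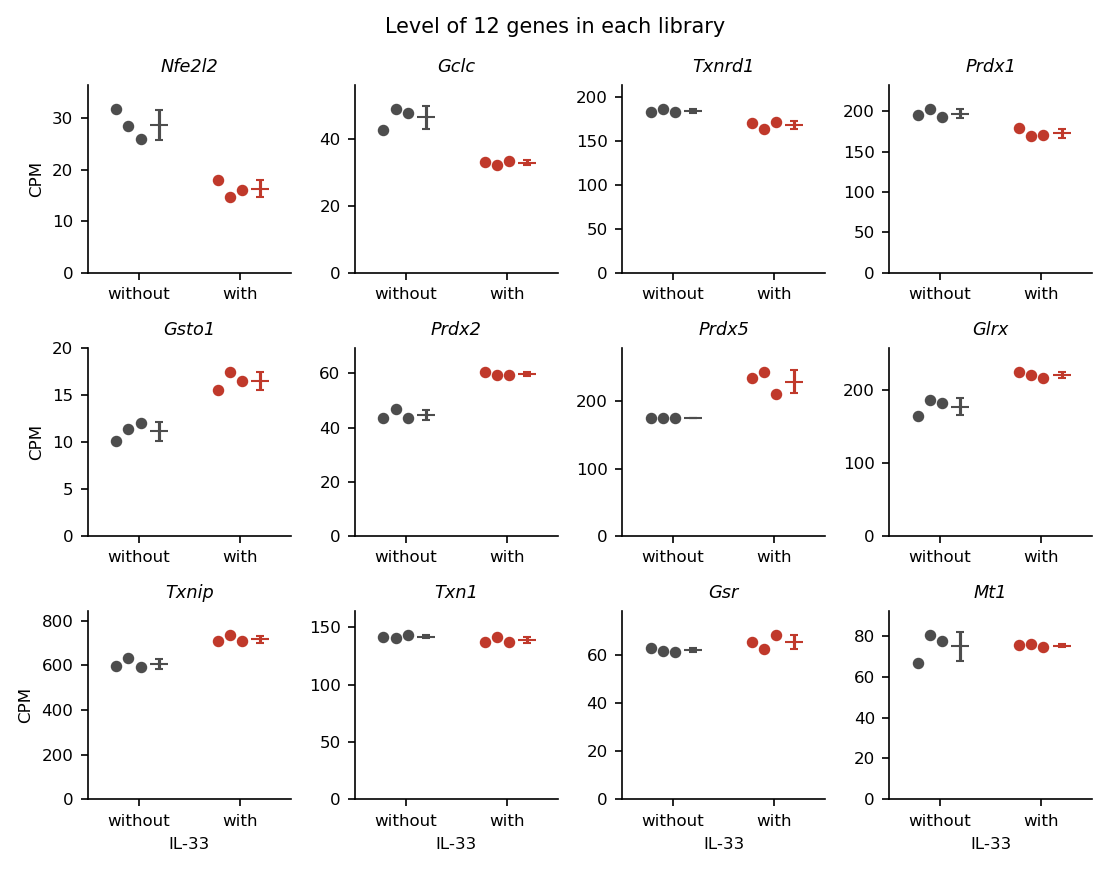
CPM of 12 of the genes in each of the 3 libraries without and 3 with IL-33 (points), with the mean and SD beside them, on y axes that start at 0. The libraries with IL-33 lie below all control libraries in Nfe2l2, Gclc, Txnrd1 and Prdx1, above them in Gsto1, Prdx2, Prdx5, Glrx and Txnip, and overlap with them in Txn1, Gsr and Mt1.

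In glutathione synthesis, both genes of the first and limiting enzyme fell. Gclc, the catalytic subunit of glutamate-cysteine ligase (chromosome 9, 77754535 to 77794485), had 905, 996 and 1051 counts in the control libraries and 710, 673 and 746 with IL-33, or 42.6, 49.0 and 48.0 against 33.01, 32.1 and 33.6 CPM. All libraries with IL-33 were lower, by a log2 fold change of -0.50 (SE 0.063, adjusted p = 1.2e-10). Gclm, the modifier subunit, had 22.05, 20.2 and 22.04 CPM against 18.0, 18.3 and 17.8. The groups lay apart, with a log2 fold change of -0.25 (SE 0.087, adjusted p = 0.022). The call of Gclm depended on the tool and the libraries. Its adjusted p was 0.059 in DESeq2, 0.079 without control replicate 1, 0.079 without control replicate 3, 0.061 without IL-33 replicate 1 and 0.060 without IL-33 replicate 3, and over the 13 alternatives it ran from 0.013 to 0.079. Part of Gclm lies over an annotated pseudogene and shares a stretch of 287 bases at 97.9% identity with Ppia, an abundant gene, so that its reads could have been split or added to. Gss, glutathione synthetase, which adds glycine in the second step, had 8.15, 8.66 and 9.17 CPM against 9.90, 8.97 and 12.5. The groups overlapped and the adjusted p was 0.10, though without IL-33 replicate 2 it was 0.037 (0.037 to 0.58 over the alternatives). Summed per length over the 3 genes, the level was 17.2 ± 0.888 RPKM without IL-33 and 13.4 ± 0.452 RPKM with it (SD, n = 3).

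Gsr, which returns oxidized glutathione to its reduced form with NADPH, had 62.9, 61.6 and 61.5 CPM in the control libraries against 65.5, 62.7 and 68.2. The lowest library with IL-33 lay within the control range, and the adjusted p was 0.24 at a log2 fold change of 0.079. Of the 3 glutathione peroxidases 1 passed the test (33.3%, beside 27.5% of all genes tested). Gpx4, which reduces lipid peroxides in membranes and is known to guard T cells against ferroptosis, had 168, 168 and 166 CPM in the control libraries and 180, 186 and 173 with IL-33. It rose by a log2 fold change of 0.10 (SE 0.036, adjusted p = 0.024) with the groups apart. This call was lost without control replicate 3 (0.078), without IL-33 replicate 1 (0.055), without IL-33 replicate 2 (0.16) and when libraries were scaled by their totals (0.071), in a range of 0.0067 to 0.16. A copy of the gene, Gpx4-ps2, is 99.7% identical over 762 bases and held 7007 counts over the 6 libraries beside 22229 for Gpx4, so reads could have been split between them. Gpx1, the main cytosolic enzyme, had 98.0, 101 and 96.4 CPM against 108, 102 and 103, with the groups apart and an adjusted p of 0.13. Gpx8, an enzyme of the endoplasmic reticulum, had 12.2, 15.6 and 13.1 CPM against 13.5, 14.4 and 14.6, and the groups overlapped (adjusted p = 0.76).

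The glutathione transferases, which couple glutathione to small molecules or act as peroxidases, held the widest changes after Nfe2l2, with 3 of the 5 genes rising and 1 falling. The share with an adjusted p under 0.05 was 80%, beside 27.5% of all genes tested. Gsto1, of the omega class, had 214, 231 and 265 counts in the control libraries and 334, 366 and 368 with IL-33, or 10.1, 11.4 and 12.1 against 15.5, 17.5 and 16.6 CPM. The groups lay well apart, at a log2 fold change of 0.56 (SE 0.11, adjusted p = 8.8e-06), just under a fold change of 1.5, which it passed without control replicate 3 (0.62) and without IL-33 replicate 1 (0.61). Mgst3, a membrane-bound enzyme, had 3.96, 3.54 and 5.34 CPM against 6.56, 7.06 and 5.31. It rose by a log2 fold change of 0.55 (SE 0.17, adjusted p = 0.0067), although the lowest library with IL-33 fell just under the highest control library. The adjusted p of Mgst3 was 0.069 without control replicate 2 and 0.064 without IL-33 replicate 2, within a range of 0.0011 to 0.069 over the alternatives, and it passed a fold change of 1.5 without control replicate 3 (0.75) and without IL-33 replicate 3 (0.67). Mgst2, its relative, had 45.9, 52.5 and 52.5 CPM against 62.3, 63.3 and 60.6. All libraries with IL-33 were higher, at a log2 fold change of 0.30 (SE 0.054, adjusted p = 2.2e-06). Gstm5, of the mu class, went the other way, with 311, 369 and 340 counts in the control libraries and 268, 235 and 242 with IL-33, or 14.7, 18.2 and 15.5 against 12.5, 11.2 and 10.9 CPM. The groups did not overlap, and the log2 fold change was -0.48 (SE 0.11, adjusted p = 1.6e-04). An antisense gene, 4933431E20Rik, covers 13.9% of its exon bases and fell by 0.51 on the log2 scale. As no source says whether counting used the strand, the reads of Gstm5 and this gene cannot be told apart. Gstp1, of the pi class, had 5.42, 8.17 and 9.95 CPM against 7.86, 8.35 and 11.9, with overlapping groups and an adjusted p of 0.48, or 0.038 without control replicate 3 (0.038 to 0.87 over the alternatives).

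In the thioredoxin system the genes of the thioredoxins did not pass the test, that of the cytosolic reductase fell slightly and that of the inhibitor rose. Txn1, the cytosolic thioredoxin, had 142, 141 and 143 CPM in the control libraries and 137, 142 and 137 with IL-33. The groups overlapped, and the log2 fold change of -0.034 had a 95% interval of -0.11 to 0.041. Txn2, the mitochondrial form, had 68.8, 66.2 and 65.3 CPM against 69.7, 67.7 and 66.3 (log2 fold change 0.024, adjusted p = 0.76). Txnrd1, the cytosolic reductase, a selenoprotein, had 183, 186 and 183 CPM against 170, 164 and 171. Every library with IL-33 was lower, by a log2 fold change of -0.13 (SE 0.035, adjusted p = 0.0028). Txnrd2, the mitochondrial reductase, had 9.09, 10.7 and 10.3 CPM against 9.90, 10.97 and 9.54, with a log2 fold change of 0.015 whose sign changed with the scaling, to -0.0020 with library totals. Txnip, which inhibits thioredoxin and limits glucose uptake (chromosome 3, 96557957 to 96561883), had by far the highest counts of the 33 genes, 12694, 12882 and 12959 in the control libraries and 15263, 15406 and 15738 with IL-33. Its level was 598, 634 and 591 CPM against 710, 735 and 708, with the groups apart and a log2 fold change of 0.24 (SE 0.027, adjusted p = 8.1e-13). The RPKM of Txnip divided by that of Txn1 was 1.42, 1.51 and 1.39 in the control libraries against 1.74, 1.74 and 1.74 with IL-33, and the RPKM of Txnrd1 divided by that of Txn1 was 0.191, 0.196 and 0.190 against 0.184, 0.171 and 0.185. For each ratio the groups lay apart and the exact two-sided permutation p was 0.1, the smallest possible.

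The 6 peroxiredoxins, which reduce hydrogen peroxide with electrons from thioredoxin or glutathione, moved apart from each other, 3 rising and 1 falling. This was 66.7% of them, beside 27.5% of all genes tested. Prdx5, found in mitochondria, peroxisomes and cytosol (chromosome 19, 6906697 to 6910106), had 3721, 3555 and 3832 counts in the control libraries and 5055, 5101 and 4673 with IL-33, or 175, 175 and 175 against 235, 243 and 210 CPM. The 3 control libraries were almost equal and all libraries with IL-33 lay above them, at a log2 fold change of 0.39 (SE 0.037, adjusted p = 1.6e-13). Prdx2, a cytosolic enzyme best known from red blood cells (chromosome 8, 84969587 to 84974834), had 928, 954 and 956 counts against 1300, 1249 and 1318, or 43.7, 46.9 and 43.6 against 60.4, 59.6 and 59.3 CPM. Again the groups lay apart, at a log2 fold change of 0.42 (SE 0.055, adjusted p = 3.4e-10). Prdx3, the mitochondrial enzyme, had 42.8, 43.8 and 41.7 CPM against 51.9, 47.8 and 46.1 and rose by a log2 fold change of 0.18 (SE 0.059, adjusted p = 0.011). This call was lost without control replicate 3 (0.054) and without IL-33 replicate 1 (0.13), in a range of 0.0050 to 0.13 over the alternatives. Prdx1, the abundant cytosolic enzyme (chromosome 4, 116685544 to 116700822), had 196, 203 and 192 CPM against 179, 169 and 170. It fell with the groups apart, at a log2 fold change of -0.19 (SE 0.035, adjusted p = 9.0e-06). Prdx4, of the endoplasmic reticulum, had 226, 236 and 234 counts against 216, 181 and 200, in CPM apart but with an adjusted p of 0.12. Prdx6, which works with glutathione, had 104, 104 and 104 CPM against 94.3, 106 and 102, and the groups overlapped (adjusted p = 0.44).

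As shares of the summed RPKM of the 6 peroxiredoxins, Prdx5 made up 37.7 ± 0.564% without IL-33 and 44.3 ± 1.64% with it, and Prdx1 29.8 ± 0.357% and 23.5 ± 0.926% (SD, n = 3). Prdx2 went from 6.76 ± 0.190% to 8.11 ± 0.293%. These shares depend on the merged exon lengths. In mean CPM Prdx1 was above Prdx5 in the control libraries, at 197 against 175. The RPKM of Prdx5 divided by that of Prdx1 was 1.27, 1.23 and 1.29 in the control libraries and 1.87, 2.04 and 1.76 with IL-33, again with the smallest exact two-sided permutation p of 0.1. The sum itself was 217 ± 3.24 RPKM without IL-33 and 242 ± 10.1 RPKM with it. The exons of Prdx5 and Prdx2 overlap those of neighbouring genes on the other strand. Trmt112 covers 19.1% of the exon bases of Prdx5, had 614 to 747 counts a library and had a log2 fold change of -0.15 (adjusted p = 0.11). Rnaseh2a covers 177 of the 3050 exon bases of Prdx2 and had 362 to 488 counts a library, and Junb covers 173 (5.67%), had 5839 to 8711 counts a library and rose by a log2 fold change of 0.36. Without knowing whether counting used the strand, reads of these pairs cannot be told apart. Processed pseudogenes alike to Prdx1 held 5 and 209 counts over the 6 libraries beside 23674 for Prdx1 itself. Of the erythroid markers, Alas2 rose from 0.924 to 4.42 CPM, a log2 fold change of 2.24 (adjusted p = 8.7e-13), while Hba-a1 was at 0.394 and 0.122 CPM and Slc4a1 at or near 0, and their part in the result of Prdx2 was not tested.

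**Figure D4:**
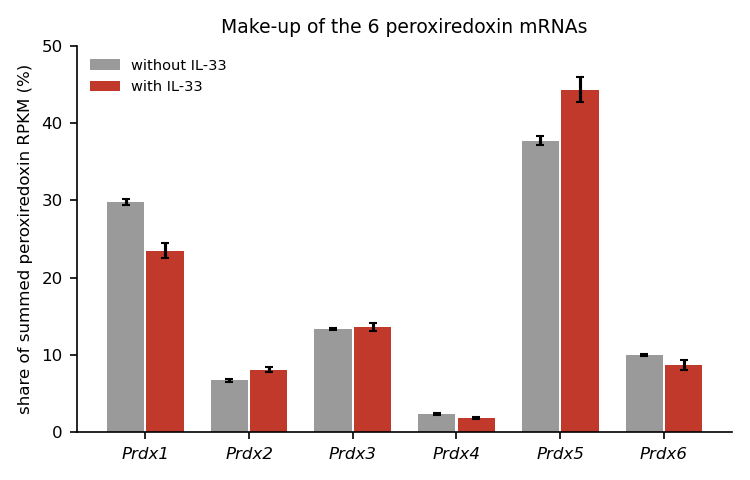
Share of each peroxiredoxin in the summed RPKM of the 6 (y axis, percent, from 0), as the mean of 3 libraries without IL-33 (grey) and 3 with it (red), with SD as error bars. With IL-33 the bar of Prdx5 is higher, at 44.3% against 37.7%, and that of Prdx1 lower, at 23.5% against 29.8%.

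Among the enzymes that act directly on superoxide and hydrogen peroxide the changes were small. Sod1, the cytosolic copper-zinc superoxide dismutase, had 149, 150 and 155 CPM in the control libraries and 167, 177 and 158 with IL-33. The groups lay apart, at a log2 fold change of 0.14 (SE 0.038, adjusted p = 0.0018), a call that was lost without IL-33 replicate 2 (0.062, in a range of 6.0e-05 to 0.062 over the alternatives). A processed pseudogene 97.8% identical over 465 bases held 607 counts beside 20438 for Sod1. Sod2, the mitochondrial manganese enzyme and a known NF-κB target, had 41.1, 39.6 and 40.1 CPM against 39.9, 40.4 and 40.7. Its log2 fold change of 0.0036 had a 95% interval of -0.12 to 0.13, and its sign changed with the scaling, to -0.014 with library totals. A transcript of Rps6ka2 is 98.3% identical to Sod2 over 3110 bases and held 288 counts beside 5168 for Sod2. Reads of Sod2 could therefore have been split or added to. Cat, catalase of the peroxisomes, had 74.0, 75.6 and 78.1 CPM against 84.7, 83.3 and 82.6. All libraries with IL-33 were higher, at a log2 fold change of 0.14 (SE 0.043, adjusted p = 0.0092), and the adjusted p was 0.053 without control replicate 1 and 0.0081 to 0.053 over the alternatives.

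Glrx, the cytosolic glutaredoxin, which removes glutathione from proteins, rose. It had 3478, 3781 and 3976 counts in the control libraries and 4821, 4631 and 4806 with IL-33, or 164, 186 and 181 against 224, 221 and 216 CPM. All libraries with IL-33 were above the controls, at a log2 fold change of 0.32 (SE 0.036, adjusted p = 8.8e-12). Glrx2, the mitochondrial form, had 15.3, 17.8 and 16.5 CPM against 19.2, 19.3 and 19.5. The groups lay apart and the adjusted p was 0.052, or 0.048 in limma-voom, 0.046 with a filter of 1 CPM and 0.038 without control replicate 2, in a range of 0.038 to 0.23. Stretches of Glrx2 match 93 other genes, 50 of them with counts, so its reads could have been split or added to. Mt1, a metallothionein, which binds zinc and scavenges radicals, had 67.0, 80.3 and 77.4 CPM against 75.4, 76.2 and 74.4. The libraries with IL-33 fell within the control range, with a log2 fold change of 0.0084 (adjusted p = 0.92) whose sign changed with library totals, to -0.0089.

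Per length of exon, Txnip was the most abundant of the 33 genes in the control libraries at 195 ± 7.33 RPKM, followed by Txn1 at 135 ± 0.917, Gpx4 at 97.1 ± 0.766, Prdx5 at 81.8 ± 0.115 and Gpx1 at 68.4 ± 1.74 RPKM (SD, n = 3). Nqo1 at 1.67 ± 0.128 RPKM and Gss at 1.46 ± 0.0863 RPKM were the lowest. Of the 32 pairs of neighbours in this order 17 differed by more than the sum of their SDs and 15 did not, among the latter Prdx1 and Mt1, Cat and Prdx3, and Srxn1 and Txn2. With IL-33 the order of Gpx4 and Prdx5 was turned, at 104 ± 3.59 and 107 ± 8.03 RPKM, which did not differ beyond their spread. Nfe2l2 moved from rank 23 to rank 27, where at 4.30 ± 0.449 RPKM it did not differ beyond its spread from Prdx4 at 4.38 ± 0.348 or Sod2 at 4.03 ± 0.0397 RPKM. Summed over all 33 genes the level was 1054 ± 21.1 RPKM without IL-33 and 1136 ± 20.9 RPKM with it. This order and these sums rest on merged exon lengths, such as 3970 bases for Sod1 and 10008 for Sod2. Such lengths can exceed those of the transcripts expressed, and how far the order depends on them was not tested.

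**Figure D5:**
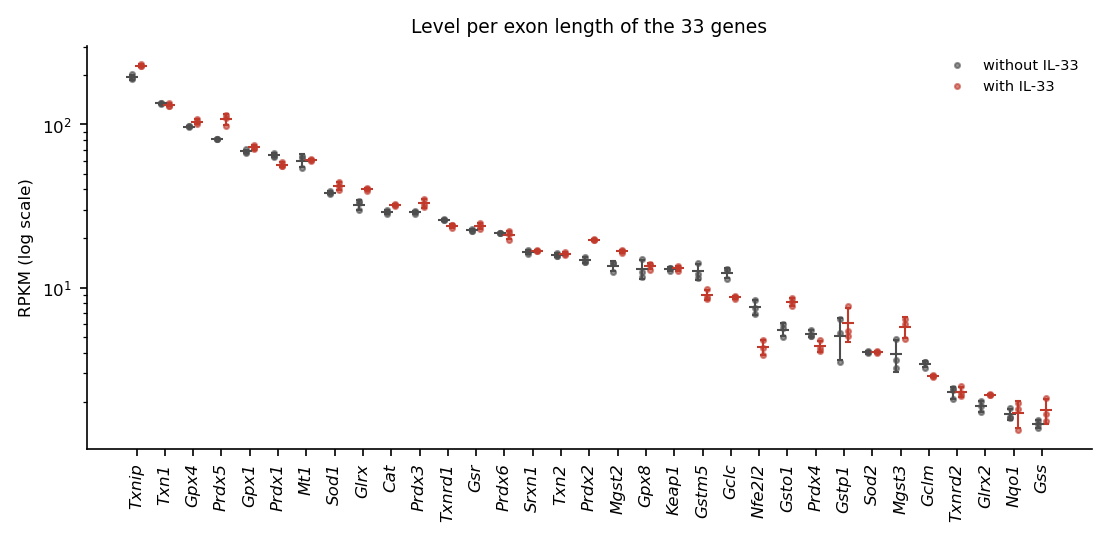
Level of the 33 genes in RPKM on a log axis, as single libraries (points) with the mean and SD, without IL-33 (grey) and with it (red), ordered by the control mean. The levels span from 195 RPKM for Txnip to 1.46 RPKM for Gss, and the gap between the groups is small beside this span.

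Genes around the same pathways were taken from a list of 100, of which 97 were listed in the table and 88 tested. This list too was chosen with earlier results of these data known. By the same test 23 rose and 11 fell (38.6%, beside 27.5% of all genes tested), and 3 were past both thresholds, all of them higher (3.41%, beside 4.87%). Me1, malic enzyme, which makes NADPH, had 12.1, 11.3 and 10.8 CPM in the control libraries and 25.5, 21.4 and 22.6 with IL-33, a log2 fold change of 1.03 (SE 0.096, adjusted p = 2.7e-16). Ncf1, a subunit of the phagocyte NADPH oxidase that produces superoxide, had 15.4, 19.2 and 18.3 CPM against 38.5, 40.7 and 40.3, a log2 fold change of 1.18 (SE 0.075, adjusted p = 4.8e-26). Gstm1, a glutathione transferase of the mu class like Gstm5, had 3.44, 3.10 and 2.24 CPM against 9.44, 8.78 and 6.26, a log2 fold change of 1.48 (SE 0.17, adjusted p = 9.2e-12). In all 3 genes the groups lay far apart.

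Of the 9 genes of NADPH supply 3 rose, Me1, Tkt and Nnt, with log2 fold changes of 1.03, 0.13 and 0.35, and 0 fell (33.3%, beside 27.5% of all genes tested). The other 6, G6pdx, Pgd, Taldo1, Me2, Idh1 and Idh2, had log2 fold changes from -0.020 to 0.19 and did not pass the test, although G6pdx had an adjusted p of 0.0497 without control replicate 3 (0.0497 to 0.26 over the alternatives). The call of Nnt was lost without control replicate 1 (adjusted p = 0.063) and without IL-33 replicate 1 (0.071), in a range of 0.0025 to 0.071. Of the 4 relatives of TXNIP, Arrdc3 rose and Arrdc4 fell (50%, beside 27.5% of all genes tested). Their log2 fold changes were 0.24 and -0.23, while Arrdc1 at -0.060 and Arrdc2 at -0.22 did not pass. The adjusted p of Arrdc3 ran from 0.012 to 0.14 and that of Arrdc4 from 0.0014 to 0.17 over the alternatives, above 0.05 without control replicate 1 and without IL-33 replicate 2 for Arrdc3, without control replicates 2 or 3 and IL-33 replicate 1 for Arrdc4, and in DESeq2 for both. Among 4 genes of the response to metals 1 passed the test (25%, beside 27.5% of all genes tested). The zinc transporter Slc39a10 rose by a log2 fold change of 0.17 (adjusted p = 0.017, above 0.05 in DESeq2, without control replicate 3 and without IL-33 replicate 3, in a range of 0.0074 to 0.14). Mt3, Mtf1 and Slc30a1 had log2 fold changes of 0.19, -0.094 and 0.056 and did not pass. Of 9 genes grouped around NRF2 in the wider list 3 rose and 3 fell (66.7%, beside 27.5% of all genes tested). Named after their values had been seen, these were Maff, Mafg and Sqstm1 with log2 fold changes of 0.30, 0.12 and 0.17, and the repressors Bach1 and Bach2 and the small MAF protein gene Mafk with -0.32, -0.27 and -0.30. Of 8 other known NRF2 targets 4 rose and 0 fell (50.0%, beside 27.5% of all genes tested and 33.4% of those with at least the mean CPM of the lowest antioxidant gene), named likewise as Hmox1 at 0.22, Fth1 at 0.15, Abcc1 at 0.34 and Osgin1 at 0.36 on the log2 fold change scale. These 8 leave out the 33 antioxidant genes above, of which 11 rose and 6 fell. NRF2 is known to induce many genes of the glutathione and thioredoxin systems, to which those 33 belong in large part.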

How the data were processed

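Total RNA of 3 control and 3 IL-33 libraries was sequenced. For each Ensembl gene and library the authors deposited an unnormalized read count, and 1 column of signal, a mean over libraries that was not used for any result. The submitters' processing notes name Bowtie 0.12.2 and the build mm8, without their role. How reads were counted, with which annotation and whether by strand is not given in the sources used here, and the labels and the methods name different library kits. Nothing states that replicates came from separate mice or cultures, so p-values measure only the spread between these libraries, which may be technical.

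Samples were grouped by their labels. Totals were 20256342 to 22336050 counts, the filter (filterByExpr, minimum count 10, minimum total 15) removed 0.108 to 0.113% of counts, and replicate libraries were further apart than sampling noise (chi-square per gene 2.64 to 3.67). Counts were scaled by TMM and compared with edgeR's quasi-likelihood test (edgeR 4.0.16, R 4.3.3, robust, two-sided, no covariates) with Benjamini-Hochberg adjustment over 14671 genes, at an adjusted p of 0.05 and, where stated, a fold change of 1.5. Exon lengths are those of the merged exons of all transcripts of a gene in GENCODE M21 (GRCm38), whose identifiers matched 26086 genes. RPKM was computed from the counts, and promoters were taken from RefSeq. Copies were searched with blastn (at least 95% identity over 100 bases).

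The genes to name were the 34 genes and, of the wider list, those past both thresholds and the groups of NADPH supply, TXNIP relatives and metal response. The members and lists were chosen with earlier results of these data known. Alternatives were DESeq2 1.42.0, limma-voom (limma 3.58.1), DESeq2 size factors in edgeR, library totals, no filter, a filter of 1 CPM, the replicate number as a block, a test against the fold change threshold and each library left out. The fit was tested on simulated data with a fold change of 2, where edgeR recovered 82.5% and made 4 false calls. That change is larger than any of the 33 genes showed, so the simulation does not cover smaller changes.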

Additional observations from a re-analysis of the deposited data

How the results depend on the processing

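Over 13 alternatives other than the test against the fold change threshold, 11 of the 17 calls were kept in each and 6 (Cat, Gclm, Gpx4, Mgst3, Prdx3 and Sod1) were lost in at least 1, and 0 called genes changed sign. The number of antioxidant genes with an adjusted p under 0.05 was 16 in DESeq2, 18 in limma-voom and 14 to 17 with 1 library left out. The test against a fold change of 1.5 left 0 antioxidant genes by either rule, 113 of all genes by either rule and 3 of the wider list. DESeq2 gave 501 of all genes past both thresholds. With 1 library left out, 1 to 3 antioxidant genes were past both thresholds, both Gsto1 and Mgst3 joining Nfe2l2 without control replicate 3, Gsto1 without IL-33 replicate 1 and Mgst3 without IL-33 replicate 3. The median log2 fold change of the 33 genes was 0.063 in limma-voom, 0.037 with library totals and 0.036 to 0.074 with 1 library left out. With library totals the log2 fold changes of all genes shifted by a median of -0.017, and those of Keap1 (-0.0034), Txnrd2 (-0.0020), Sod2 (-0.014) and Mt1 (-0.0089) changed sign, as did Nqo1 (-0.0014) in limma-voom. With 1 library left out the sign changed in Nqo1 (-0.097 to 0.17), Keap1 (-0.010 to 0.043), Txnrd2 (-0.050 to 0.062), Sod2 (-0.0083 to 0.019), Mt1 (-0.066 to 0.060), Gpx8 (-0.020 to 0.16), Prdx6 (-0.084 to 0.0014), Slc30a1 (-0.21 to 0.36), Idh2 (-0.074 to 0.14), Taldo1 (-0.046 to 0.00087) and Mt3 (-0.069 to 0.35), for which the cause was not tested. Same-numbered libraries deviated together with correlations of 0.0116, 0.0032 and 0.0107, beside -0.0138 to 0.0029 for the other pairs, and each library correlated best with its own number. These values cannot show whether equal numbers mark a shared culture or batch, and no source says so. With the replicate block 17 antioxidant genes had an adjusted p under 0.05, 1 of them past both thresholds, and the block changed no call among the 33 genes. Slc30a1 has no value under the filter of 1 CPM. Depth limits Nqo1, Gss, Gstp1 and Mgst3 most, the genes with the lowest counts. Gstp1 also spread more between libraries, with an SE of 0.23 beside 0.13 for Gss.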
